A study of Mus musculus with 60 samples.

Results

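Leptin (Lep), adiponectin (Adipoq), resistin (Retn), complement factor D or adipsin (Cfd), retinol binding protein 4 (Rbp4), lipocalin 2 (Lcn2), angiotensinogen (Agt), Serpina3n, lipopolysaccharide binding protein (Lbp) and neuregulin 4 (Nrg4) are 10 genes for proteins that adipocytes secrete. They were taken from a list of secreted adipocyte genes, and several were chosen by measured values, for large changes in these libraries. Which of the 10 these were, and in which comparison, was not recorded, so the changes of all 10 are given as a description, without p-values. Where a member is called higher or lower, this says only that its fit passed the threshold applied to all genes, and nothing is supported with it. All 10 were present in each of the 5 deposited tables, out of 16658 genes present in all 5 and 22893 present in any, and all 10 passed the filter on low values in every table.

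RNA was sequenced in 60 mouse libraries in 18 groups. In 36 libraries, wild-type preadipocytes were taken through adipogenic differentiation with RNA taken on days 0, 2, 4 and 6, and there are 3 libraries per day for each of B9 (an immortalized brown preadipocyte line), pBAT (primary brown preadipocytes of newborn pups) and pWAT (their primary white counterparts). In 16 libraries, wild-type pBAT cells were differentiated with vehicle, with 1 mM succinylacetone (SA, an inhibitor of heme synthesis), with 10 µM heme-arginate (HA, a soluble form of heme) or with both (HASA), 4 libraries each. The other 8 libraries are brown adipose tissue of female mice, 4 wild type (WT) and 4 lacking Alas1, which encodes the first enzyme of heme synthesis, in brown adipocytes (BAKO), each library from its own animal. The Cre driver and the age of these mice, the alleles that the WT mice carry, and the day of harvest of the treated cells, are not given in the sources used here. B9 is a single line, and an R of unstated meaning stands in its column names except at day 0. The labels do not say that the libraries of a cell group came from separate cultures, so the spread between them may be technical.

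Adipocytes are endocrine cells. Leptin signals fat stores to the hypothalamus, adiponectin raises insulin sensitivity in liver and muscle, and resistin in mice acts against insulin; all 3 are made mainly by fat. Adipsin is the serine protease that starts the alternative complement pathway by cutting factor B, and retinol binding protein 4 carries vitamin A in blood. Lipocalin 2 binds bacterial siderophores and so withholds iron, lipopolysaccharide binding protein hands endotoxin to CD14, and Serpina3n inhibits serine proteases; these are acute phase proteins, as is angiotensinogen, the precursor of the angiotensin peptides. Neuregulin 4 is a growth factor of brown fat that binds ErbB4.

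The bases just before the start site are shown for the members whose window held a match to a short motif of C/EBP or STAT factors, which act in adipocyte differentiation and in the acute phase. RefSeq windows on GRCm38.p6 existed for 9 of the 10 members, 10 windows in all, since Rbp4 has a pair; Lbp was not matched. The 250 bases before each start site were searched on both strands for TTGCNNAA (C/EBP), TTCNNNGAA (STAT), TGANNNNGC (NRF2), GGANTTTCC (NF-kB) and TATAAA. Matches are in capitals, 5′ to 3′ on the gene's strand.
Lep (chr6:29059971-29060220, plus strand): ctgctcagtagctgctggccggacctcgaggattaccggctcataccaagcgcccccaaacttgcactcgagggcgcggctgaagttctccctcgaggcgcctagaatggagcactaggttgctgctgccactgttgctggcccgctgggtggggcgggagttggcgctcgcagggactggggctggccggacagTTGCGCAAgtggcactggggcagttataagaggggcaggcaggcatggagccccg
Rbp4 (chr19:38124812-38125061, minus strand): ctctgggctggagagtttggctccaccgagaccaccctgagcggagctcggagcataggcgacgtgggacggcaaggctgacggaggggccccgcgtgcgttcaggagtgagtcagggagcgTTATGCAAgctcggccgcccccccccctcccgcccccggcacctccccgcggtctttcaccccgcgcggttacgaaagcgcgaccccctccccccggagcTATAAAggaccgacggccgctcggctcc
Lcn2 (chr2:32387740-32387989, minus strand): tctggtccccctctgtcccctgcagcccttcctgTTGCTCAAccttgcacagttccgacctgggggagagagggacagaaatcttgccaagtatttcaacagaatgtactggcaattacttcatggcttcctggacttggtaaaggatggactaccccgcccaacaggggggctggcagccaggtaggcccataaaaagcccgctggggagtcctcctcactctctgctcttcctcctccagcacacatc
Agt (chr8:124569707-124569956, minus strand): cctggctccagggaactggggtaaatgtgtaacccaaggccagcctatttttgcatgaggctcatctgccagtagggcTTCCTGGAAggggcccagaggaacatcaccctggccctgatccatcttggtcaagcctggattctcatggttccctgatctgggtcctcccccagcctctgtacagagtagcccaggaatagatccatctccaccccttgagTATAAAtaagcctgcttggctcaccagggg
The C/EBP letters began 55 bases before the start site in Lep, 128 in Rbp4 and 216 in Lcn2, and the STAT letters 172 bases before it in Agt. Rbp4 and Agt also held TATAAA, 28 and 30 bases before the start. The C/EBP letters occur in 9.56% of 32851 promoter windows of this length, the STAT letters in 7.02%, the NRF2 letters in 35.2%, TATAAA in 12.4% and the NF-kB letters in 1.07%. Of the other windows, Adipoq and Nrg4 held the NRF2 letters, Retn, Cfd, Serpina3n and the other Rbp4 window held none of the 5, and no member window held the NF-kB letters. A match shows that these letters are present and nothing about binding.

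All values are log2 values as deposited, normalized within each of the 5 tables, so tests were made within a table and levels set across tables are descriptions. Differences are between group means on this scale, with the standard error (SE) of the limma fit, and a gene is called at a Benjamini-Hochberg adjusted p under 0.05. Low values are drawn together on this scale, which understates the changes of genes that are low in a group. The depth of the libraries is unknown, so no detection limit is given. Fewer cells of a type and less RNA per cell cannot be told apart in such samples. Summed adipocyte markers (8 genes, 2 raised to the value, in parts per 1000000 of the sum over the library, ppm) were at 94.7 to 179 at day 0 and 8030 to 14700 at day 6 over the 3 cell types, 11400 to 13100 in the vehicle and treated cells and 13700 to 17500 in brown fat. Some brown fat libraries stood apart in marker sums. Skeletal muscle markers were at 4050 ppm in BAKO 3 against 13.9 to 206 in the others, hepatocyte markers at 54.7 in BAKO 1 and 32.1 in WT 5 against 5.81 to 9.55, and endothelial markers at 959 in BAKO 5 against 464 to 699. Alas1 was at 10.15, 10.18, 10.45 and 10.61 in the BAKO libraries and at 12.73 to 12.97 in WT, so the labels held for each library.

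The 10 genes came up at different times during differentiation. By day 2, Serpina3n, Lbp, Agt and Lcn2 had made at least 82.3% of their log2 difference between day 0 and day 6 in every cell type, and Serpina3n was above its day 6 mean in all 3. Adipoq had made 52.5 to 76.5% of it and Retn 30 to 55.8%. Lep had made -12.5 to 3.34% and Cfd -14.6 to 12.6%, where a negative share is a mean below that of day 0. At day 6 limma called all 10 higher than at day 0 in each cell type, where 79.2% of all genes tested were called in B9 (40.5% higher), 77.5% in pBAT (38.3% higher) and 70.8% in pWAT (35.3% higher). The median difference over the 10 was 6.76 in B9, 5.57 in pBAT and 5.43 in pWAT, against 0.03, -0.00 and 0.00 over all genes tested. Nothing is read from these counts, because the genes were selected on values of these libraries.

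**Figure D1:**
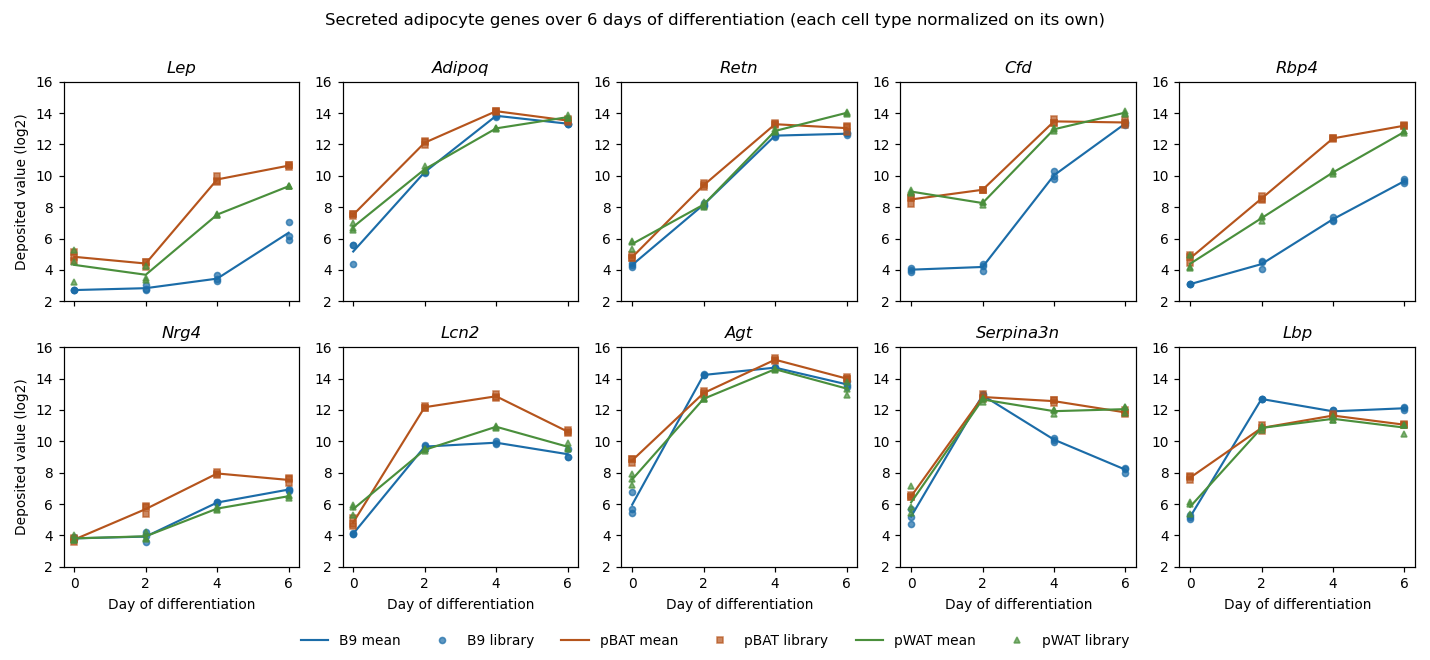
Deposited log2 values (vertical axis) of the 10 genes at days 0, 2, 4 and 6 of differentiation (horizontal axis) in B9, pBAT and pWAT cells; points are libraries and lines join the means of 3. Serpina3n, Lbp, Agt and Lcn2 had most of their rise by day 2, while Lep and Cfd had made at most 12.6% of theirs, and Serpina3n in B9 fell from 12.94 at day 2 to 8.19 at day 6.

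Lep came late. In pBAT its libraries were at 5.11, 4.58 and 4.81 at day 0, at 4.50, 4.20 and 4.52 at day 2, at 9.68, 9.63 and 10.00 at day 4 and at 10.70, 10.58 and 10.67 at day 6. In pWAT they were at 5.24, 3.23 and 4.49 at day 0 and at 9.33, 9.32 and 9.36 at day 6. In B9 they stayed between 2.70 and 3.65 up to day 4 and were at 6.16, 7.04 and 5.91 at day 6. Every day 6 library thus lay above every earlier one in all 3 cell types. The difference from day 0 was 5.82 in pBAT (SE 0.151), 5.02 in pWAT (SE 0.366) and 3.65 in B9 (SE 0.232). At day 2 Lep was the member called lower in pBAT, by 0.42 on the log2 scale. This call was lost without pBAT day 0 library 2, where the difference was -0.29, and without day 2 library 3, where it was -0.32. It was also lost after quantile normalization (-0.33) and in a fit of the day 0 and day 2 libraries alone (-0.42). In pWAT the day 2 difference of -0.63 was not called, and was -1.17 and called without day 0 library 2.

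Adipoq rose in every cell type between day 0 and day 4 and then parted. Its B9 libraries were at 5.59, 4.37 and 5.56 at day 0, 10.24, 10.27 and 10.20 at day 2, 13.89, 13.76 and 13.84 at day 4, and 13.33, 13.32 and 13.33 at day 6. Its pBAT means ran 7.52 ± 0.0564, 12.11 ± 0.125, 14.13 ± 0.0319 and 13.53 ± 0.0985 (SD, n = 3) over the 4 days, and its pWAT means 6.74 ± 0.203, 10.42 ± 0.165, 13.02 ± 0.0422 and 13.75 ± 0.104. Day 6 was below day 4 in both brown cell types, without overlap, and above it in pWAT. Summed adipocyte markers also fell in B9, from 12000 to 12700 ppm at day 4 to 8030 to 8660 at day 6. They rose in pBAT, from 12900 to 13500 up to 14500 to 14700, and in pWAT, from 7410 to 7670 up to 11900 to 12600. The part of these shifts in the Adipoq differences was not tested. Adiponectin is folded and held in the endoplasmic reticulum by helpers fixed as a list of 8 gene symbols, of which 7 were present in each cell type. Of these, Ero1l, an oxidase that frees adiponectin for secretion, was higher at day 6 than at day 0 by 4.54 in B9 (SE 0.0862, limma adjusted p = 3.27e-15), 4.84 in pBAT (SE 0.0951, adjusted p = 1.62e-15) and 2.88 in pWAT (SE 0.0875, adjusted p = 8.08e-13). The helpers did not all move that way: 3 were called higher and 2 lower of 6 tested in B9, 3 and 3 of 7 in pBAT, and 2 and 4 of 7 in pWAT, where the disulfide isomerase Pdia4 fell by 0.79.

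Retn went from 4.32 ± 0.115 at day 0 to 12.69 ± 0.0601 at day 6 in B9, from 4.81 ± 0.104 to 13.04 ± 0.208 in pBAT and from 5.65 ± 0.301 to 14.02 ± 0.0761 in pWAT (SD, n = 3 each). At day 2 it had covered 45.9%, 55.8% and 30% of that log2 difference, and at day 4 it was at 12.56, 13.29 and 12.86. Its step from day 4 to day 6 was 0.12 in B9 and -0.25 in pBAT, not called in either, and 1.16 in pWAT. The libraries of these days overlapped in B9 but not in pBAT or pWAT. The pBAT difference was -0.33 and called without day 6 library 4.

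Cfd began low in the B9 line and higher in the primary cells, in tables normalized apart. Its B9 libraries were at 4.02, 3.87 and 4.15 at day 0 and at 3.95, 4.25 and 4.36 at day 2, overlapping, then at 10.02, 9.78 and 10.31 at day 4 and 13.39, 13.42 and 13.22 at day 6. The pBAT libraries began at 8.23 to 8.66 and the pWAT libraries at 8.93 to 9.10, and they were at 13.40 to 13.62 and 12.88 to 13.06 by day 4. In pWAT Cfd was called lower at day 2, by 0.73 on the log2 scale, before its rise, with day 2 at 8.15 to 8.33. In pBAT it was called higher at day 2, by 0.62, with day 2 at 9.09 to 9.12 and no overlap. Other genes of the alternative complement pathway, whose convertase adipsin activates, were called higher at day 6 in 8 of 8 tested in pBAT and 8 of 8 in pWAT. C3, the central component, rose by 6.22 in pBAT (SE 0.117, adjusted p = 1.07e-15) and 7.45 in pWAT (SE 0.229, adjusted p = 8.98e-13). In B9, 3 of 6 rose and 1 fell: C3 and Cfb rose by 8.15 and 4.98, and C3ar1, a receptor of macrophages, fell by 3.99. Summed macrophage markers (13 genes) rose with these in the primary cells, from 214 to 233 ppm at day 0 to 825 to 1040 at day 6 in pBAT and from 145 to 155 up to 1280 to 1460 in pWAT. In B9, whose table holds 9 of the 13, those 9 summed to 4.77 to 9.48 on those days, and their part in the result was not tested.

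Rbp4 rose at every step. In pBAT its means were 4.74 ± 0.267, 8.55 ± 0.129, 12.39 ± 0.0647 and 13.20 ± 0.0541 over days 0, 2, 4 and 6, in pWAT 4.39 ± 0.458, 7.30 ± 0.188, 10.21 ± 0.102 and 12.81 ± 0.0898, and in B9 3.09 ± 0.00933, 4.37 ± 0.271, 7.23 ± 0.131 and 9.67 ± 0.115 (SD, n = 3). No library of one day overlapped with the next. Of the retinol handling genes, 2 rose and 5 fell of 9 tested in pBAT and 2 rose and 6 fell of 9 in pWAT, while in B9 3 rose and none fell of 4. Aldh1a1, which oxidizes retinaldehyde to retinoic acid, rose by 3.39 in pBAT (SE 0.09, adjusted p = 4.38e-14) and 4.83 in pWAT (SE 0.165, adjusted p = 2.78e-12). Crabp1, a carrier of retinoic acid inside cells, fell by 4.53 in pBAT and by 4.97 in pWAT.

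Nrg4 was called higher at day 6 than at day 0 by 3.11 in B9 (8.65-fold), 3.80 in pBAT (13.9-fold) and 2.69 in pWAT (6.44-fold). At day 0 it was between 3.57 and 4.01 in all 9 libraries, and at day 6 at 6.92 ± 0.0653 in B9, 7.54 ± 0.191 in pBAT and 6.50 ± 0.0996 in pWAT. In pBAT it was already at 5.81, 5.86 and 5.37 at day 2, above every day 0 library, whereas in B9 and pWAT the day 2 and day 0 libraries overlapped. Of the receptors of the 10 proteins, 2 were called higher and 3 lower of 7 tested in B9 at day 6, 5 and 3 of 11 in pBAT, and 5 and 2 of 12 in pWAT. Adipor2, an adiponectin receptor, rose by 2.48 in B9, 2.95 in pBAT and 3.06 in pWAT, and Cap1, reported as a resistin receptor in human monocytes, fell by 1.35, 1.10 and 0.75.

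Serpina3n had its highest mean at day 2 in all 3 cell types. In B9 its libraries were at 5.16, 4.75 and 5.70 at day 0, at 13.04, 12.84 and 12.93 at day 2, at 10.11, 10.24 and 9.97 at day 4 and at 8.25, 8.0 and 8.32 at day 6. The groups did not overlap, and from day 2 to day 6 the mean fell by 4.75. In pBAT it was at 12.83 ± 0.158 at day 2 and 11.84 ± 0.146 at day 6, and in pWAT at 12.67 ± 0.134 and 12.06 ± 0.212, drops of 0.99 and 0.61 on the log2 scale. Serpina3n has closely related neighbours, and how reads were shared among them is not stated; 2 of 3 tested paralogs were called higher at day 6 in B9, and in the primary cells 2 rose and 1 fell, of 4 tested in pBAT and 3 in pWAT.

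Lcn2 was called higher by 5.56 at day 2 in B9, 7.35 in pBAT and 3.78 in pWAT. In pBAT its libraries were at 4.61, 4.74 and 5.12 at day 0, 12.15, 12.28 and 12.10 at day 2, 12.99, 12.78 and 12.85 at day 4, and 10.71, 10.53 and 10.62 at day 6. It was thus highest at day 4 and lower by 2.25 at day 6. The same peak, with smaller drops of 0.74 and 1.27, stood in B9 and pWAT.

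Lbp reached 12.70 ± 0.00681 in B9 at day 2, from 5.17 ± 0.145, and was at 11.91 and 12.11 on the later days. In pBAT it went from 7.68 ± 0.11 to 10.85 ± 0.185, 11.64 ± 0.0877 and 11.06 ± 0.064, and in pWAT from 5.82 ± 0.409 to 10.85 ± 0.126, 11.44 ± 0.132 and 10.88 ± 0.339. Agt peaked at day 4 in all 3 cell types, at 14.70 ± 0.0553 in B9, 15.21 ± 0.0795 in pBAT and 14.60 ± 0.0364 in pWAT, from 5.96, 8.78 and 7.57 at day 0. By day 6 it was lower by 1.06, 1.20 and 1.23, without overlap between the days.

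At day 6, 40.5% of all genes tested in B9, 38.3% in pBAT and 35.3% in pWAT were called higher, and the counts for other genes of these pathways stand beside those shares. Of the other acute phase genes, 11 rose and 1 fell of 12 tested in B9 at day 6, 12 rose and 2 fell of 14 in pBAT, and 10 rose and 2 fell of 13 in pWAT. Haptoglobin (Hp) rose by 6.18 in pBAT and 5.91 in pWAT, orosomucoid 1 (Orm1) by 6.56 in B9 and 6.90 in pWAT, and Ptx3 fell by 4.10 in B9. Of the genes that cut or bind angiotensin peptides, 6 rose and 1 fell of 7 tested in B9, 7 and 1 of 10 in pBAT, and 9 and 1 of 10 in pWAT. Agtr2, an angiotensin receptor, rose by 5.17 in pBAT (SE 0.106, adjusted p = 2.48e-15) and 5.28 in pWAT (SE 0.284, adjusted p = 4.18e-10), and Ace, the converting enzyme, by 3.17 in B9, 3.31 in pBAT and 4.09 in pWAT. Of the STAT3, NF-kB and C/EBP regulators, 4 rose and 11 fell of 15 in B9, 6 and 7 of 16 in pBAT, and 4 and 8 of 16 in pWAT; Cebpa, a factor of adipocyte differentiation, rose by 7.06, 3.13 and 4.20. The 41 other secreted adipocyte genes were split, with 12 higher and 13 lower of 28 tested in B9, 15 and 15 of 33 in pBAT, and 16 and 11 of 32 in pWAT. Lipoprotein lipase (Lpl) rose by 4.30 in B9, 4.68 in pBAT and 5.65 in pWAT.

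At day 2, 7 of the 10 were called in B9, 10 in pBAT and 8 in pWAT, where 69.2%, 66.5% and 52.7% of all genes were called. At day 4 all 10 were called in each, where 74.9%, 73.5% and 65.7% were. Between day 4 and day 6, the last step, 5 were called higher and 3 lower in B9, 2 and 5 in pBAT, and 6 and 3 in pWAT, where 53.4%, 43% and 31.5% of all genes were called. Lep and Rbp4 were called higher, and Agt and Lcn2 lower, in all 3. Adipoq was called lower in pBAT, by 0.60, and higher in pWAT, by 0.72, while its B9 difference of -0.51 was not called. That B9 difference was called in a fit of the day 4 and day 6 libraries alone. Cfd differed by 3.31 in B9, -0.07 in pBAT and 1.06 in pWAT, and Retn by 0.12, -0.25 and 1.16. The cell types were normalized apart, so these differences were not tested against each other. The B9 difference of Lbp, 0.20, was no longer called without B9 day 4 library 2, where it was 0.12, or without day 6 library 2 or 3, where it was 0.18 and 0.17. Nor was it called with no filter on low values, without the trend, with median centring or with the replicate block (0.18 to 0.20). The pWAT difference of Lbp, -0.56, was no longer called without day 4 library 2, 3 or 4 or day 6 library 3 (-0.36 to -0.60), without the trend (-0.56) or with the replicate block (-0.47).

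**Figure D2:**
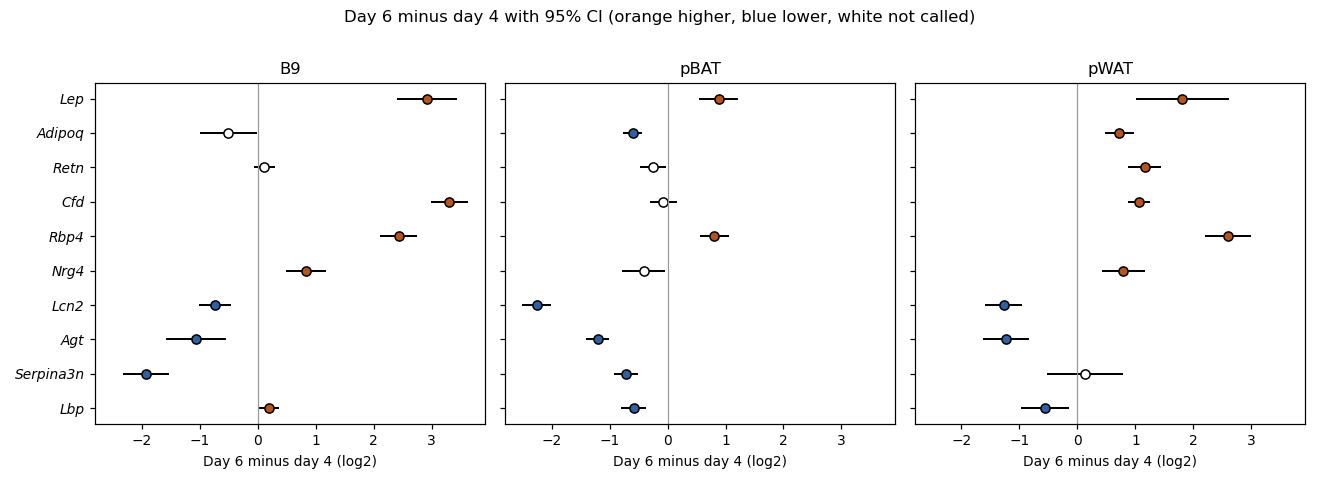
Day 6 minus day 4 difference of log2 means (horizontal axis) with its 95% CI for each gene (vertical axis) in B9, pBAT and pWAT; orange was called higher, blue lower and white not called. Lep and Rbp4 lie to the right and Agt and Lcn2 to the left in all 3 panels, and Adipoq lies left in B9 and pBAT (-0.51 and -0.60) and right in pWAT (0.72).

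The treatments ask what blocking heme synthesis, adding heme, and adding heme to blocked cells do in pBAT adipocytes. SA was accompanied by 4.87-fold higher Lcn2 and 2.30-fold lower Lep, with smaller changes of the other genes in both directions. HA, which supplies heme, was accompanied by nearly the same drop of Lep and by small changes elsewhere. Adding HA to SA did not bring Lep or Lcn2 back toward vehicle. Serpina3n, Lbp and Nrg4 were called higher in HASA than in SA, by 0.83, 0.29 and 0.27, in the direction of vehicle. Retn and Adipoq were called higher there too, by 0.40 and 0.25, which was further from vehicle. With SA, limma called 5 members higher and 4 lower, where 41.4% of all genes were called; with HA 2 higher and 3 lower, where 8.97% were; for HASA against SA 6 higher and 1 lower, where 24.7% were; and for HASA against HA 6 higher and 3 lower, where 42.7% were. The first pair of comparisons shares the vehicle libraries, and each HASA comparison shares the HASA libraries. Nothing is read from these counts, since the genes were selected on values of these data.

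**Figure D3:**
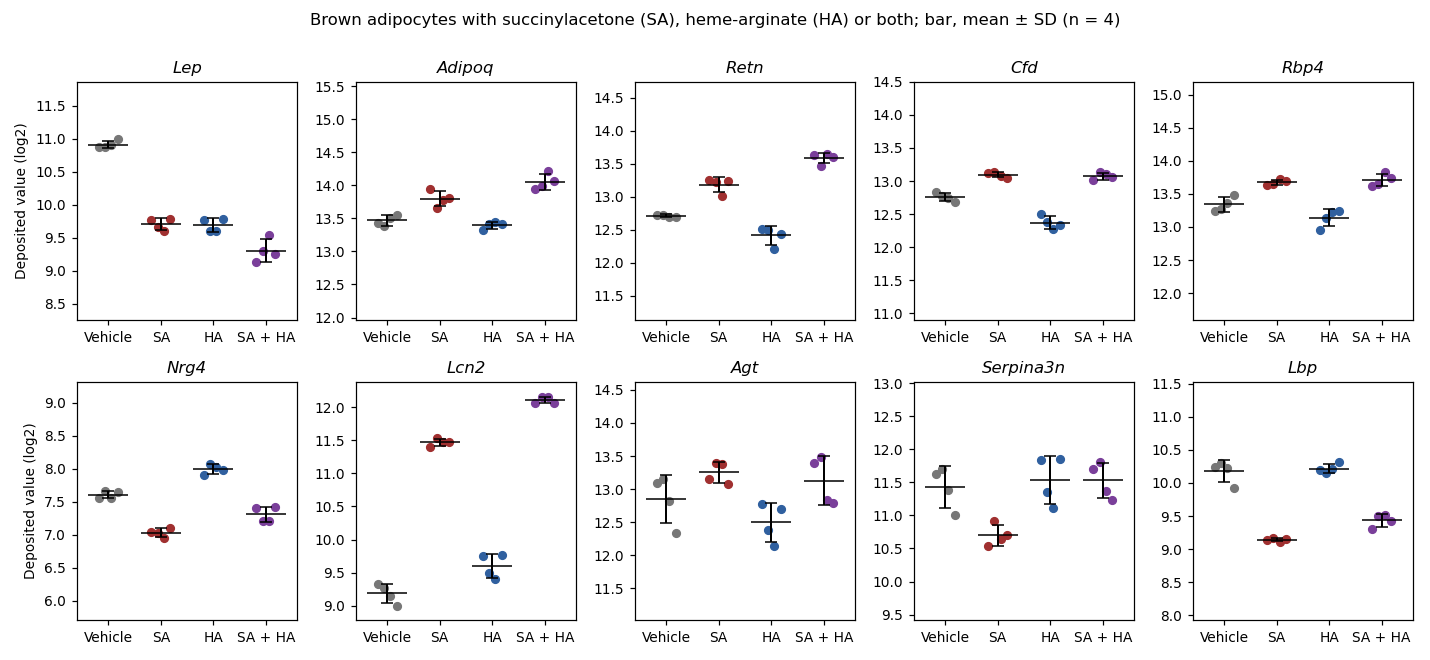
Deposited log2 values (vertical axis, each panel with its own range) of the 10 genes in pBAT cells with vehicle, SA, HA or both; points are libraries and bars are the mean ± SD of 4. Lep is lower in all 3 treated groups than in vehicle (10.87 to 10.99), and Lcn2 is at 11.40 or above in both groups that had SA.

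Lep was at 10.88, 10.87, 10.90 and 10.99 with vehicle, at 9.77, 9.66, 9.61 and 9.79 with SA, at 9.77, 9.60, 9.60 and 9.79 with HA, and at 9.13, 9.30, 9.54 and 9.26 with both. The SA and HA libraries covered nearly the same range, all vehicle libraries were above them, and all HASA libraries were below them. The difference from vehicle was -1.20 with SA and -1.22 with HA (SE 0.0722 each, n = 4), and HASA was lower than SA by 0.40. HASA was thus less far below HA than SA was below vehicle: the SA difference in the presence of HA was smaller in size by 0.82 on the log2 scale (95% CI 0.60 to 1.03), and the interaction was called.

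Lcn2 was at 9.33, 9.27, 9.15 and 9.00 with vehicle and at 11.40, 11.53, 11.48 and 11.48 with SA. It was at 9.75, 9.49, 9.41 and 9.76 with HA and at 12.07, 12.15, 12.16 and 12.07 with both, so the 4 groups did not overlap. The difference was 2.29 for SA (SE 0.0766), 0.42 for HA, and 0.64 for HASA against SA. The SA difference in the presence of HA was 2.51, and the interaction of 0.22 (95% CI -0.01 to 0.45) was not called. Hmox1, which degrades heme and is induced by it, was at 13.51 to 13.88 with vehicle, 14.27 to 14.49 with SA, 15.66 to 16.01 with HA and 16.13 to 16.31 with both.

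Adipoq, Retn, Cfd and Rbp4 were all called higher with SA, by modest amounts. Retn was at 12.73, 12.73, 12.69 and 12.70 with vehicle, 13.26, 13.22, 13.01 and 13.24 with SA, 12.52, 12.50, 12.21 and 12.43 with HA, and 13.63, 13.47, 13.65 and 13.60 with both. It was therefore 0.47 higher with SA (SE 0.0635) and 0.29 lower with HA, and highest with both, without overlap among the 4 groups. Adipoq was at 13.47 ± 0.0758 with vehicle, 13.80 ± 0.115 with SA, 13.40 ± 0.0559 with HA and 14.05 ± 0.118 with both (SD, n = 4). Cfd was at 12.76 ± 0.0644, 13.09 ± 0.0352, 12.38 ± 0.0971 and 13.07 ± 0.0497 in that order. Its HA libraries, at 12.27 to 12.50, lay below all others, while SA and HASA overlapped. Rbp4 was at 13.34 ± 0.114, 13.68 ± 0.0362, 13.14 ± 0.128 and 13.71 ± 0.098, and its HA difference of -0.20 was not called. It was called without HA library 4 or vehicle library 1 (-0.24 each). It was also called with the stricter filter on low values, after quantile normalization (-0.26) and with the replicate block. For Retn, Adipoq and Cfd the SA difference was larger with HA present, by 0.70 (95% CI 0.51 to 0.89), 0.32 (0.15 to 0.50) and 0.37 (0.23 to 0.50), and the interaction was called. The interaction was called for 4 members with Lep, or 3 to 5 with 1 library left out, where 7.67% of all genes were called, and nothing is read from this count. The Adipoq interaction was lost on leaving out any one of HA 1, SA 2, HASA 3, HASA 4, vehicle 3 or vehicle 4, with values of 0.27 to 0.32.

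**Figure D4:**
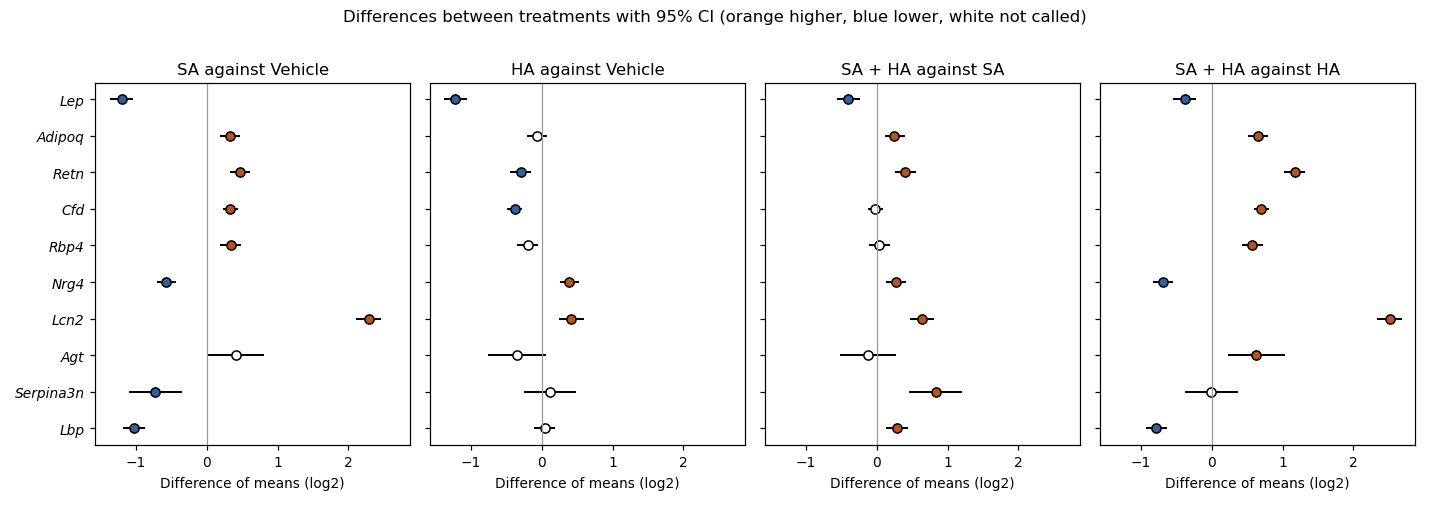
Differences of log2 means (horizontal axis) with 95% CI for the 10 genes (vertical axis) in 4 treatment comparisons of pBAT cells; orange was called higher, blue lower and white not called. Lcn2 has the largest positive difference in both panels that add SA (2.29 and 2.51), and Lep is negative in all 4.

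Of the other acute phase members, Lbp and Serpina3n were called lower with SA and Agt was not called. Lbp was at 10.24, 10.30, 10.23 and 9.93 with vehicle, 9.14, 9.17, 9.11 and 9.16 with SA, 10.19, 10.15, 10.21 and 10.31 with HA, and 9.30, 9.50, 9.51 and 9.43 with both. Every library with SA lay below every library without it, and HASA was 0.29 above SA. Serpina3n was at 11.62, 11.70, 11.38 and 11.00 with vehicle and at 10.53, 10.92, 10.64 and 10.70 with SA, a difference of -0.73 (SE 0.17) without overlap. It was at 11.83, 11.36, 11.11 and 11.85 with HA and 11.70, 11.80, 11.37 and 11.24 with both, which overlapped with vehicle. Agt was at 13.09, 13.15, 12.82 and 12.34 with vehicle and 13.16, 13.40, 13.38 and 13.08 with SA. Its SA difference of 0.41 (95% CI 0.02 to 0.79) was not called and the groups overlapped, while HASA was higher than HA by 0.63 and called.

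Nrg4 was at 7.56, 7.66, 7.56 and 7.65 with vehicle, 7.05, 7.03, 6.95 and 7.11 with SA, 7.90, 8.07, 8.03 and 7.98 with HA, and 7.40, 7.21, 7.21 and 7.42 with both. It was called higher with HA, by 0.39, and lower with SA, by 0.57 on the log2 scale, with no overlap among the 4 groups.

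Markers of other cells moved with these treatments. Summed macrophage markers were at 305 to 355 ppm with vehicle, 256 to 276 with SA, 425 to 491 with HA and 443 to 542 with both, and all 13 were in the table. Fibroblast progenitor markers (7 genes) were at 487 to 503, 302 to 325, 526 to 563 and 424 to 445. Neutrophil markers, of which 5 of 9 were in the table, stayed at 0.878 to 0.956 ppm in every library. The part of macrophages or progenitors in the differences of Serpina3n, Lbp and the other members was not tested. Likeness over the 16 libraries was ranked by Pearson's r of the log2 values, with the members and genes with provisional symbols left out. The genes most like Serpina3n were C1qc (0.914), Cd163 (0.903) and Anxa1 (0.895), of which C1qc and Cd163 are on the macrophage list. Those most like Lcn2 were Hsd11b1 (0.993), Stt3b (0.992) and Ces1f (0.99), those most like Cfd were Cebpa (0.969), Acvr1c (0.968) and Tmem120b (0.959), and those most like Rbp4 were Slc25a10 (0.952), Adrb3 (0.945) and Plin1 (0.937). For Lep they were Mup22 (0.962), of a family with near-identical copies, Car3 (0.953) and Apol6 (0.942). The libraries of a group share their treatment, so these values describe the 4 groups more than 16 points.

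Of the other secreted adipocyte genes, 17 were lower and 3 higher with SA of 30 tested, where 41.4% of all genes were called. Their median difference was -0.22, against 0.33 over the 10 members and 0.00 over all genes. Nothing is read from the median of the members, since several were selected on values of these data. Gpx3, a plasma glutathione peroxidase, was lower by 2.36 (SE 0.0983, limma adjusted p = 4.48e-12) and Pltp, which moves phospholipid between lipoproteins, by 1.93 (SE 0.0663, adjusted p = 4.76e-13). Apoe, a lipoprotein ligand, and Angptl4, an inhibitor of lipoprotein lipase, were lower by 0.72 (adjusted p = 1.51e-08) and 0.73 (adjusted p = 3.98e-08). With HA, 3 were higher and 3 lower; Angptl4 was lower there too, by 0.38 (adjusted p = 0.000669). For HASA against SA, 14 were higher and 5 lower, with Angptl4 lower again by 0.76 (adjusted p = 2.67e-07), and for HASA against HA 3 were higher and 13 lower. Like Lep, Angptl4 was thus lower in each of the 4 comparisons, at 12.86 with vehicle, 12.13 with SA, 12.47 with HA and 11.37 with both.

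The acute phase list was split. With SA, 2 of its 14 tested genes rose and 3 fell, Itih4 by 0.91 (SE 0.0472, adjusted p = 7.88e-11). With HA, 5 rose and 4 fell: Mt2, a metallothionein, rose by 0.88, and Ptx3 and Saa3 by 0.84 and 0.80. Of the regulators, 2 rose and 6 fell with SA of 16, and Cebpb and Cebpd, which drive acute phase genes in liver, fell by 0.80 (adjusted p = 3.54e-08) and 0.55 (adjusted p = 9.9e-05), while Cebpa rose by 0.29. With HA 1 of the 16 was called, Cebpa, lower by 0.23. Of the angiotensin pathway, 2 rose and 5 fell of 8 with SA, among them Ace, lower by 1.35 (SE 0.11, adjusted p = 2.56e-08), and Enpep, an aminopeptidase, higher by 0.82. Of the complement list, 1 rose and 3 fell of 8 with SA, with Cfb lower by 0.77. Of the receptors, 2 rose and 3 fell of 11 with SA, and Erbb3 was higher by 0.32. Of retinol handling, 2 of 7 fell, and of the adiponectin helpers 2 rose and 2 fell of 7, with Ero1l higher by 0.57 (SE 0.0492, adjusted p = 5.49e-08).

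In brown fat without Alas1 in brown adipocytes, Rbp4, Cfd and Nrg4 lay lower in every BAKO library than in any WT library. Every BAKO library below every WT library was seen for 2.94% of all genes. Rbp4 was at 10.53, 10.52, 9.69 and 9.36 in BAKO and at 11.79, 11.86, 11.84 and 11.06 in WT, a difference of -1.61 (SE 0.282, 95% CI -2.24 to -0.99, n = 4 mice each). Cfd was at 14.33, 14.38, 13.74 and 13.43 against 14.88, 15.22, 14.67 and 14.55, a difference of -0.86 (SE 0.224). Nrg4 was at 11.27, 11.48, 11.20 and 11.19 against 11.76, 11.60, 11.60 and 11.69, a difference of -0.38 (SE 0.0833).

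In all 3 of these genes BAKO 3 and BAKO 5 were the lowest 2 libraries. BAKO 3 is the library with the skeletal muscle markers, and BAKO 5 had the highest summed endothelial markers and the highest macrophage markers, 360 ppm, against 177 to 279 in the other BAKO libraries and 146 to 272 in WT. Without both libraries the Rbp4 difference was -1.12, that of Cfd -0.47 and that of Nrg4 -0.29. Hepatocyte markers (7 genes), given here because liver makes much of the RBP4 in blood, were at 5.81 to 54.7 ppm in BAKO, highest in BAKO 1, and 5.97 to 32.1 in WT, highest in WT 5, which was also the lowest WT library in Rbp4 (11.06) and Cfd (14.55). The Rbp4 difference was -1.78 without BAKO 1 and -1.81 without WT 5. It was also -1.78 without BAKO 2, whose hepatocyte markers were at 9.55 ppm. The part of these cells in the result was not tested.

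limma called 0 of the 10 members in BAKO, where it called 0.111% of all genes, 15 of 13497. At an unadjusted p under 0.05, 5 members and 1173 of all genes, 8.69%, would pass, from which nothing is read, and limma without the trend also called 0 members. Adipoq was at 13.27, 13.85, 13.45 and 12.75 in BAKO and 14.04, 13.85, 13.64 and 13.92 in WT, overlapping at the top BAKO library. Lep was at 10.06, 9.71, 9.21 and 9.83 against 9.38, 9.27, 8.67 and 9.58, higher on average by 0.48 (95% CI -0.00 to 0.96) with overlap. Retn differed by -0.03 (95% CI -0.60 to 0.54), Lcn2 by 0.15 (-0.24 to 0.53), Lbp by 0.03 (-0.17 to 0.23), Agt by 0.15 (-0.12 to 0.42) and Serpina3n by 0.36 (0.07 to 0.64). Over the 9 lists of other secreted, acute phase, complement, angiotensin, receptor, retinol, folding, regulator and serpin A3 genes, limma called 0 of 104 genes tested, with or without the trend. Of these, 11 (10.6%) had an unadjusted p under 0.05, against 8.69% of all genes, 5 of them among the 33 other secreted genes tested.

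**Figure D5:**
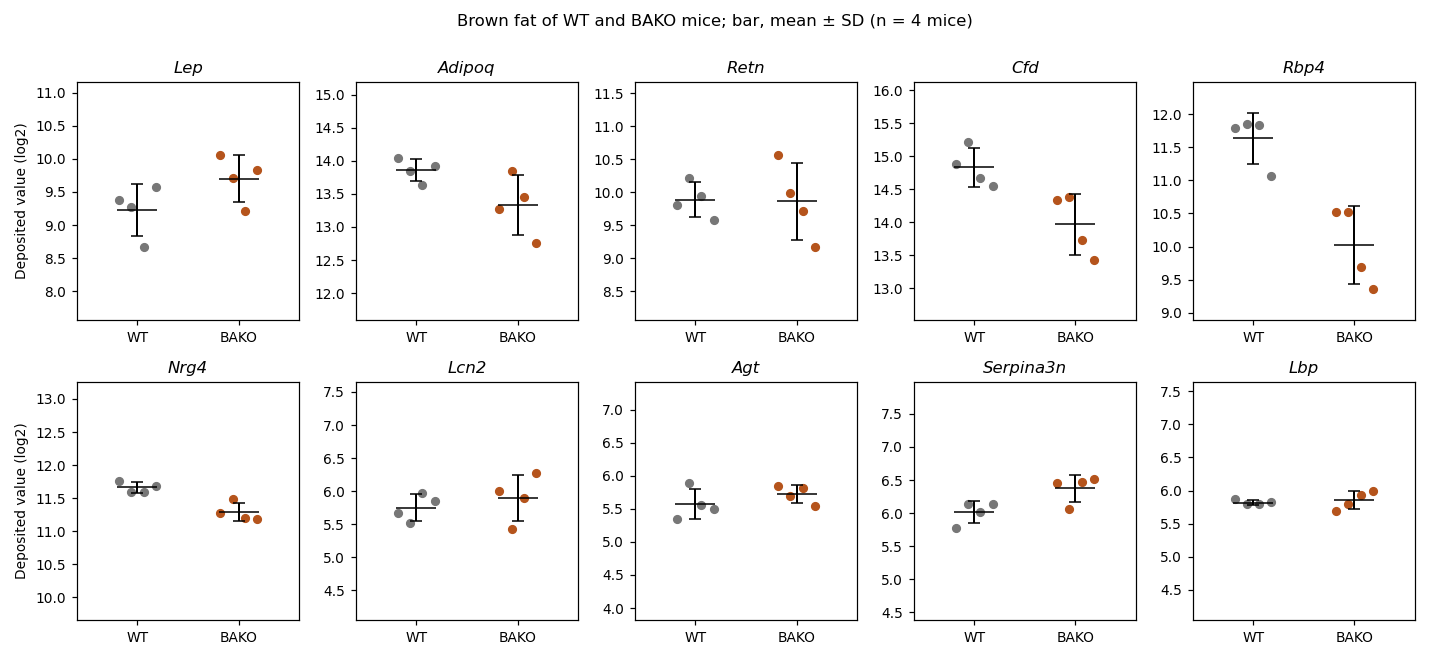
Deposited log2 values (vertical axis, each panel with its own range) of the 10 genes in brown fat of WT and BAKO mice; points are mice and bars are the mean ± SD of 4. Rbp4, Cfd and Nrg4 do not overlap between the groups, with Rbp4 at 9.36 to 10.53 in BAKO and 11.06 to 11.86 in WT.

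Set side by side across tables that were normalized apart, and in ppm of the summed values, several of the genes stood at different levels in tissue and in culture. Agt was at 1.36 to 2.00 ppm in WT brown fat and at 246 to 432 in vehicle pBAT cells, Serpina3n at 1.83 to 2.53 and 97.5 to 158, Lbp at 1.88 to 2.03 and 46.5 to 60.2, and Lcn2 at 1.56 to 2.23 and 24.3 to 31.0. Retn was at 27.5 to 40.2 in WT brown fat and 316 to 326 in the cells. Nrg4 went the other way, at 105 to 118 in tissue and 9.01 to 9.61 in the cells, and Cfd was at 861 to 1290 and 313 to 350. Adipoq was nearly level, at 454 to 561 and 509 to 573. Cells and tissue libraries were prepared by different companies, and no test was made across them.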

How the data were processed

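RNA of 60 mouse libraries was sequenced; per the labels' protocols, cell libraries were stranded mRNA libraries made by BGI and brown fat libraries were made by Novogene with poly-T beads. Per the submitters' processing notes, kallisto and DESeq2 were used with GRCm39; no version is given in the sources used here. The 5 tables deposited by the authors are named as raw counts but hold log2 values (-1.96 to 21.28, none whole, 2 raised to the value summing to 18.0 to 29.9 M per library), normalized within each table; the base rests on these sums. Read depth is unknown. Symbols came from GENCODE M21 names, which matched 99.63 to 99.77% of gene identifiers.

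Genes with a highest group mean of at least 4 were tested with limma 3.58.1 in R 4.3.3 on the values as deposited (every library of a table in 1 model with a mean for each group, mean-variance trend, Benjamini-Hochberg over the genes tested, call at adjusted p under 0.05, 95% CI), in 18 comparisons. The fit was tested on simulated data. SDs are between libraries. No library pair was identical. The members and gene lists were chosen with earlier results of these data known. In each list, up to 4 called genes with the smallest adjusted p could be named, and for each member the 3 genes with the highest Pearson's r over the 16 treated libraries. Members and genes with provisional symbols were left out of that ranking by r. Of the genes that these rules name, 1 is left out here. Alternatives were other filters, fits, scalings and libraries left out.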

Additional observations from a re-analysis of the deposited data

Results flagged for a closer look

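In 3 groups of 4, 1 library lay apart from the other 3 by more than Dixon's 95% limit: Retn in SA library 3 (13.01, the nearest at 13.22), Rbp4 in WT library 5 (11.06, the nearest at 11.79) and Serpina3n in BAKO library 2 (6.06, the nearest at 6.45). Chance flags about 1 in 20 groups, and 60 groups were looked at. The SA difference depended on whether HA was present, by an interaction called by limma, for Lep (0.82), Retn (0.70), Cfd (0.37) and Adipoq (0.32). The Adipoq call was lost with some single libraries left out. The interactions of Serpina3n, 0.72 (95% CI 0.21 to 1.22), and Lbp, 0.25 (0.05 to 0.45), were not called. Without vehicle library 4 they were 0.86 and 0.33, and both were called. These genes were chosen with values of these libraries known.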

How the results depend on the processing

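The differences of the 10 members were recomputed under 2527 combinations of a comparison and an alternative: 2496 stayed within 1 SD of the reported value, 31 moved further and 0 reversed. That SD was the largest among the groups compared, and leaving out 1 library cannot move a difference past it. Changing the filter, the trend or the groups in the fit leaves a difference as it is. Most of these outcomes were thus fixed in advance, and no stability is read from the count. Calls of members changed in 39 cases, in 14 of 180 differences. With the numbers in the library names as a replicate block, the members called with SA went from 9 to 10 and with HA from 5 to 6, and the genes called in BAKO from 15 to 3. Same-numbered libraries correlated over 0.1 in 0 of 14 pairs in B9, 0 of 13 in pBAT and 2 of 13 in pWAT. Among the treated cells 7 of 24 pairs did, and in brown fat 2 of 3. In brown fat the median r was 0.317 over same-numbered pairs and -0.107 over other pairs. The main fits took no pairs, and whether the numbers mark pairs was not tested. Of the other secreted adipocyte genes, 6 were called with HA, 3 with no filter on low values, and 2 to 5 with 1 library left out (2 without HA 2, HA 4 or vehicle 2, and 3 without vehicle 1 or vehicle 3). All genes called with HA went from 1148 to 694 without HA 2 or vehicle 1. All genes called in BAKO went from 15 to between 1 and 16 with 1 library left out (1 without BAKO 1, BAKO 3, WT 1, WT 3 or WT 4, and 7 without BAKO 2) and to 4 without BAKO 3 and BAKO 5; the cause was not tested. In B9 the Lep difference of day 4 from day 0, 0.73, was 0.43 and not called after quantile normalization. Read depth is unknown, so what depth limits cannot be stated. The drawn-in low values limit Lep, Rbp4 and Nrg4 at day 0. They likewise limit Cfd in B9 (mean 4.01) and Lcn2 and Retn in B9 and pBAT (means 4.11 to 4.82) on that day.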
